A study of Mus musculus with 18 samples.

Results

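The comparison described here is that of Med1 mutant with wild-type (WT) mouse B cells after 2 days with LPS and IL4, read as the contacts of a single point of the immunoglobulin heavy chain locus (Igh). It uses 6 of the 18 libraries of the series, the 3 mutant and 3 WT libraries labelled day 2 whose files hold read counts and whose culture was LPS with IL4. The contacts were measured by 4C-seq, in which chromatin is fixed, cut and ligated, and every fragment joined to a chosen bait is amplified and sequenced. As bait served a site in the intronic enhancer Eμ of Igh (mm10 chr12:113426025-113426048). The mutant group consisted of mature splenic CD43-negative B cells with the label Med1 Mutant, and the WT group of the same kind of cells with the label WT; the labels give LPS and IL4 before fixation for all but WT replicate 2, whose culture note names anti-CD40 with IL4. The libraries of resting cells of both genotypes (3 and 3, day 0) entered the fits for their spread and are described only where they bear on the comparison. The labels give neither the kind of Med1 allele nor what drives its loss, no age of the animals, and no statement that replicates came from separate animals. The p-values below therefore measure the spread between these libraries, which may be technical.

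Mediator is the large complex that joins transcription factors bound at enhancers to RNA polymerase II at promoters, and Med1 is the subunit through which many of those factors bind it. In activated B cells Igh undergoes class switching, in which transcription through a constant gene's switch region opens it to DNA breaks, and recombination then replaces Ighm by that constant gene. Eμ lies between the J segments and Ighm. In mature B cells it meets the 3' regulatory region (3'RR), a group of enhancers beyond Igha that drives transcription of the switch regions, and the constant genes to be transcribed are held near both. LPS with IL4 directs switching to Ighg1 and Ighe, while LPS alone directs it to Ighg3 and Ighg2b.

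A contact was counted where the genome is cut by DpnII, the first enzyme, so each counted interval of 24 bp abuts a GATC. The design gives the primers that amplify outward from the bait, and the sequence of a counted end can be read in the promoter of Crip1, a gene of the near 3' flank. All 3 are shown because they define what a read stands for. Capitals mark the DpnII site at the end.
Bait primer 1: tctgtcctaaaggctctgaga
Bait primer 2: gaacacagaagtatgtgtatgga
Crip1 promoter end: GATCagcgttcccaggggtccaagtccc
The Crip1 end lies at chr12:113151938-113151965 (plus strand, sequence from RefSeq, GRCm38.p6). It was read 337, 2552 and 274 times in mutant replicates 1, 2 and 3 and 855, 267 and 346 times in WT replicates 1, 2 and 3. Scaled to 1000000 chromosome 12 reads outside the bait neighbourhood these were 212.5, 250.4 and 205.9 in the mutant and 305.3, 139.5 and 179.7 in WT. The groups overlap, and the WT libraries alone span a wider range than all 3 mutant libraries. Over all RefSeq promoter windows, 1681 of 1681 counted ends abutted a GATC on exactly 1 side.

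The 6 libraries held 2717529 to 21074434 reads. Mutant replicate 2 was the deepest, and the other 5 held at most 5820368. Between 41.3% and 44.4% of reads fell on other chromosomes, and 7.23% to 8.60% lay within 5 kb of the bait and were left out. The remaining chromosome 12 reads (1330447 to 10193114) are the base of all shares below, and a share is given per library as a percentage of them. The reads carry no molecular identifiers, so a share rests on PCR products and not on independent molecules. A lower share can come from fewer cells holding a contact or from rarer ligation in each cell, which cannot be told apart in a culture. The libraries fall into sets that no label names. At 87 ends of chromosome 12, mutant replicates 2 and 3 and WT replicate 3 held 5.66% to 6.32% of their reads, while mutant replicate 1 and WT replicates 1 and 2 held at most 0.00984%. These ends, within chr12:111655391-115651475, were picked over the 12 libraries of both days. They had at least 50 reads in at least 5 libraries of 1 set and fewer in every library of the other. Resting libraries split by the same replicate numbers, with 5.01% and 4.21% in mutant replicates 2 and 3 and 4.17% in WT replicate 3. Resting mutant replicate 1 and WT replicates 1 and 2 held at most 0.0103%. Beside the main results stand the log2 ratios of mean shares within the well-read set (2 mutant libraries, 1 WT) and within the other set (1 mutant, 2 WT), in that order. The cause of the split was not tested. WT replicate 2 was kept in its group, and the titles of the WT libraries read WTKO although their genotype label is WT, which was followed. 4C-seq reads ligated DNA, so neither the loss of Med1 nor the B cell identity of the cultures was checked here.

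Across 21 elements of the locus, 3 were called with a lower share of reads in the mutant. These were the Ighg3 unit, the Ighg1 unit and the middle VH segments. No element was called as higher. The 3 calls are 14.3% of the elements tested (edgeR quasi-likelihood test over 12 libraries, Benjamini-Hochberg adjusted p under 0.05), 5 elements had an unadjusted p under 0.05, and the median log2 difference over the 21 was 0.02. The distal VH segments also had every mutant library below every WT library without passing. With DESeq2 the calls were 4, with Ighg3 and Ighg1 lower and the 3'RR and its hs3a piece higher. With TMM scaling none was called, and leaving out a library left between 0 and 2. Without WT replicate 2, whose culture note names anti-CD40 with IL4, none was called, as without each other library except WT replicate 3.

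**Figure D1:**
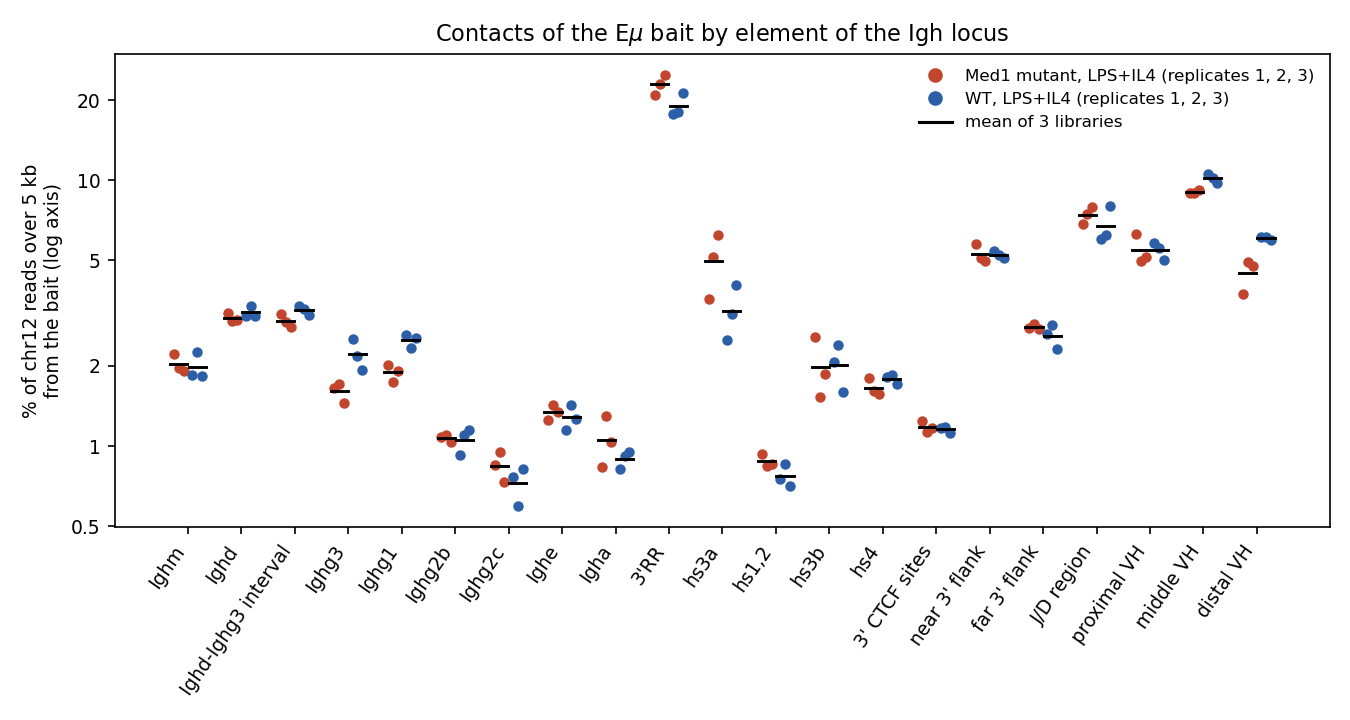
Share of chromosome 12 reads over 5 kb from the bait (percent, log axis) in each of 21 elements of Igh, with a point per library (Med1 mutant in red, WT in blue, replicates 1 to 3 from left to right) and a bar at each group's mean. The mutant points of Ighg3, Ighg1, middle VH and distal VH all lie below the WT points, and the points of all other elements overlap.

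Ighg1 encodes the constant region of IgG1, the main isotype made in response to IL4. Its unit, the gene with 10 kb upstream where the switch region and the promoter of the germline transcript lie, held 2.02%, 1.74% and 1.91% of reads in mutant replicates 1, 2 and 3 and 2.61%, 2.34% and 2.55% in WT replicates 1, 2 and 3. Every mutant library was below every WT library. The log2 difference was -0.40 ± 0.11 (SE, adjusted p = 0.0231, edgeR). By log2 ratios of mean shares the difference was -0.43 in the gene body (chr12:113326541-113330523), -0.39 in the first 5 kb upstream and -0.40 in the next 5 kb. The groups overlap in the gene body, and in the first 5 kb upstream the ratio was -0.60 within the well-read set and -0.09 within the other. In the outermost 5 kb, which held most of the unit's reads, mutant libraries had 1.04%, 0.994% and 1.14% and WT libraries 1.437%, 1.247% and 1.502%. Within the well-read set the ratio of the unit was -0.48, and within the other set -0.29. The Ighg1 call was lost whichever single library was left out (log2 -0.34 to -0.45, adjusted p 0.054 to 0.108), and with each covered end counted once the estimate turned to 0.03 (adjusted p = 0.993). In that count 81.0% ± 6.83 of the unit's ends were covered in the mutant and 79.2% ± 8.69 in WT (SD, n = 3 each, after thinning to 2468920 reads). The Ighg1 call was also lost with ends capped at the 99th percentile (-0.26, adjusted p = 0.254) and TMM scaling (-0.40, adjusted p = 0.0894, both edgeR).

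Single ends in Ighg1 were spread widely. Of the 47 ends read at least 10 times in all 6 libraries, 7 had every mutant library below every WT library and 0 the reverse. The share that was lower, 14.9%, stands beside 8.2% of such ends on all of chromosome 12, and ends with all mutant libraries higher made up 3.99% there. The most-read end of the unit (chr12:113326833-113326856, in the gene body) held 0.252%, 0.173% and 0.131% in the mutant and 0.246%, 0.208% and 0.172% in WT. Its groups overlap, so the most-read end does not carry the difference of the unit.

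Ighe, the IgE constant gene and the other switch target of IL4, held 1.25%, 1.43% and 1.35% in the mutant and 1.15%, 1.43% and 1.26% in WT. The groups overlap. The log2 difference was 0.07 ± 0.13 (adjusted p = 0.854, edgeR), and it was -0.01 without WT replicate 1. The gene body (log2 ratio 0.17), the first 5 kb upstream (-0.06) and the next 5 kb (0.08) did not share a direction. So of the 2 constant genes that this culture targets, Ighg1 was lower in the mutant and Ighe did not pass; the difference between the 2 genes was not tested.

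Ighg3, the IgG3 constant gene, is a target of LPS alone. Its unit held 1.656%, 1.718% and 1.446% in mutant replicates 1, 2 and 3 and 2.53%, 2.19% and 1.94% in WT replicates 1, 2 and 3. All 3 mutant libraries were below all WT libraries, with the lowest WT value in replicate 3. The log2 difference was -0.46 ± 0.12 (adjusted p = 0.0231, edgeR). It was steepest in the 5 kb just upstream of the gene (chr12:113361233-113366232), with 0.394%, 0.322% and 0.331% in the mutant against 0.691%, 0.701% and 0.472% in WT, a log2 ratio of -0.83. The gene body (-0.35) and the 5 kb beyond (-0.34) differed less by the same measure. Within the well-read set the ratio of the unit was -0.29 and within the other -0.51. The Ighg3 call held without WT replicate 3 (log2 -0.55, adjusted p = 0.00697) and was lost without any of the other 5 libraries (log2 -0.36 to -0.52, adjusted p 0.054 to 0.0971). With each covered end counted once the estimate was -0.07 (adjusted p = 0.993).

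Of the 32 ends of Ighg3 read at least 10 times in every library, 10 had all mutant libraries below all WT libraries and 0 the reverse, a share of 31.3% beside the 8.2% over all of chromosome 12. The most-read of them (chr12:113366580-113366603) held 0.270%, 0.176% and 0.194% in the mutant and 0.309%, 0.226% and 0.224% in WT, where mutant replicate 1 lies above the lower 2 WT libraries.

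The remaining constant genes showed no call. Ighg2b and Ighg2c, which encode IgG2 isotypes, had log2 differences of 0.02 ± 0.13 and 0.21 ± 0.22. Igha, the IgA gene next to the 3'RR, had 0.24 ± 0.18. Ighm, the gene expressed before switching, had 0.04 ± 0.12, and only 9 of its ends lie outside the left-out 5 kb. Ighd, which resting B cells express beside Ighm, had -0.07 ± 0.06, and the interval from Ighd to Ighg3 had -0.14 ± 0.08 (adjusted p 0.358 to 0.948 for these 6, edgeR). The reads of the interval were 3.14%, 2.92% and 2.80% in the mutant and 3.37%, 3.29% and 3.12% in WT, an overlap of mutant replicate 1 with WT replicate 3.

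The 3'RR, here the 35 kb beyond Igha (chr12:113221204-113256203, an approximate placement), took the largest share of all elements. It held 20.92%, 22.96% and 24.78% in mutant replicates 1, 2 and 3 and 17.7%, 18.1% and 21.2% in WT replicates 1, 2 and 3. Mutant replicate 1 lies just below WT replicate 3, and the 5 other values are in the order of genotype. The log2 difference was 0.27 ± 0.13 without a call (adjusted p = 0.239, edgeR); it was called with DESeq2 (0.33, adjusted p = 0.0303) and with the library set as a block (0.19, adjusted p = 0.0411). Within the sets the ratios were 0.17 and 0.22.

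The difference in the 3'RR was not even along its length. The first 5 kb beyond Igha held 4.33%, 6.04% and 7.15% in the mutant against 2.897%, 3.544% and 4.803% in WT (log2 ratio 0.64), where mutant replicate 1 lies below WT replicate 3 and 9 of 57 ends are among the 87 that split the libraries. The next 5 kb had a log2 ratio of 0.37 and the piece 20 to 25 kb beyond Igha one of 0.52. The other 4 pieces of 5 kb had ratios of -0.06 to 0.10, and the groups overlap in all 7. The piece at the approximate place of hs3a, the enhancer nearest Igha, held 3.58%, 5.12% and 6.19% in the mutant and 2.51%, 3.14% and 4.04% in WT. Its log2 difference of 0.62 ± 0.28 did not pass (adjusted p = 0.198, edgeR), and 6 of its 26 ends belong to the 87 that split the libraries. It was called with the library set as a block (0.40, adjusted p = 0.00554) and with DESeq2 (0.68, adjusted p = 0.0303). Without the ends read in 1 set the difference was 0.49 (adjusted p = 0.0665), and within the sets the ratios were 0.49 and 0.34. The pieces at hs1,2 (0.18 ± 0.18), hs3b (-0.03 ± 0.23) and hs4 (-0.11 ± 0.09) did not pass either. The 3' CTCF sites beyond hs4, which bound the locus, held 1.24%, 1.13% and 1.17% in the mutant and 1.17%, 1.18% and 1.12% in WT, a log2 difference of 0.03 ± 0.15. The single most-read end of the 3'RR (chr12:113250078-113250101) held 2.10%, 2.11% and 2.83% in the mutant and 1.74%, 1.53% and 1.78% in WT. These groups do not overlap, and among the 95 well-read ends of the 3'RR, 7 (7.37%) were higher in all mutant libraries and 5 (5.26%) lower, beside 3.99% and 8.2% over all of chromosome 12.

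**Figure D2:**
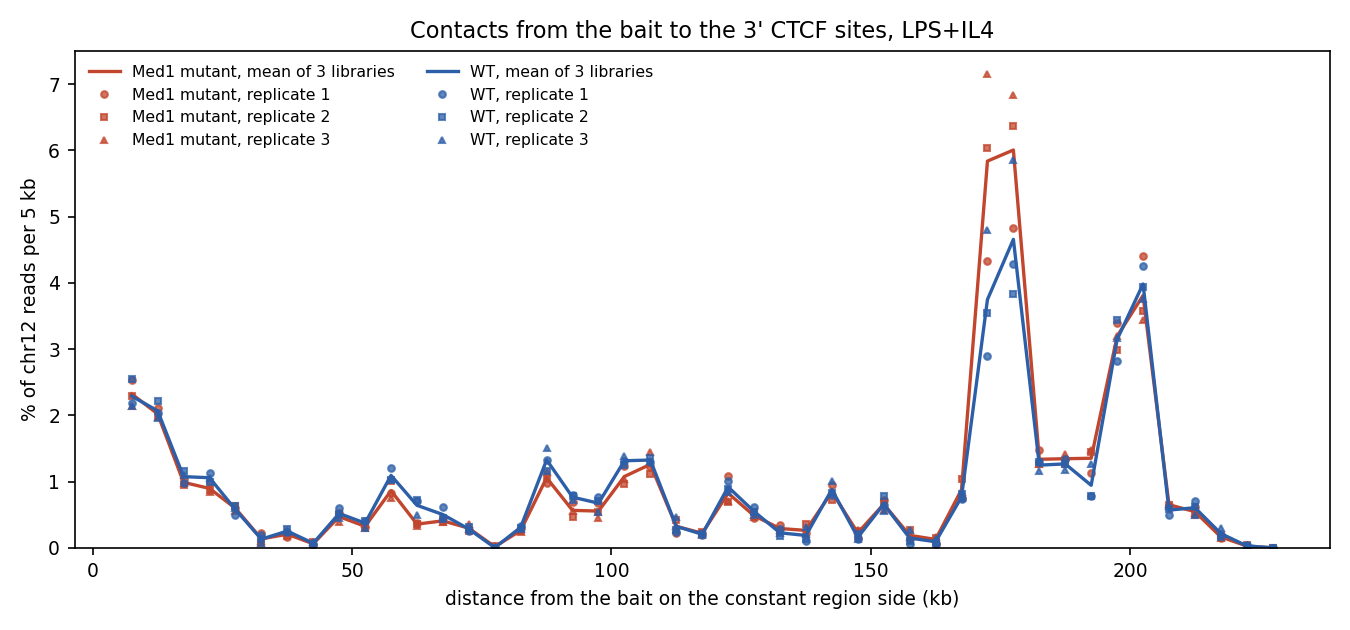
Share of chromosome 12 reads in each 5 kb from the bait to beyond the 3' CTCF sites (percent, against distance from the bait in kb), with lines at the means of the 3 mutant (red) and 3 WT libraries (blue) and a symbol per library. The lines part at the Ighg3 and Ighg1 units, 55 to 100 kb from the bait, where the mutant is lower, and at the first 10 kb of the 3'RR, where its mean is higher but the libraries overlap.

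Beyond the 3' CTCF sites lie genes outside the antibody locus. The near 3' flank, to 500 kb from the bait, held 5.28% ± 0.426 in the mutant and 5.24% ± 0.150 in WT (SD, n = 3 each), a log2 difference of 0.01 ± 0.06. In the far flank, from there to 1 Mb, the difference was 0.11 ± 0.09. None of the 15 RefSeq genes of the near flank had groups that did not overlap, and their log2 ratios ran from -0.33 to 0.37 with a median of 0.04. The most-read were Brf1, a subunit of the RNA polymerase III factor TFIIIB (0.02), Mta1, a subunit of the NuRD repressor complex (-0.05), Pacs2, a membrane traffic protein (-0.14), Tedc1 (0.04) and Gm30599 (0.08).

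On the other side of the bait, the J/D region, from which the first step of recombination takes its segments, held 6.85%, 7.46% and 7.93% in the mutant and 5.998%, 6.229% and 7.995% in WT. The log2 difference was 0.14 ± 0.12 (adjusted p = 0.517, edgeR). WT replicate 3 alone lies above the mutant libraries, and 16 of the region's 244 ends belong to the split; within the sets the ratios were -0.06 and 0.16. The 15 kb next to the bait's left-out neighbourhood held 0.359%, 0.597% and 0.652% in the mutant and 0.249%, 0.208% and 0.461% in WT, a log2 difference of 0.81 ± 0.32 (adjusted p = 0.127, no call). Calls were made without mutant replicate 1 (1.03, adjusted p = 0.0371), without WT replicate 3 (1.23, adjusted p = 0.00181), and with the library set as a block (0.65, adjusted p = 0.0195). The estimate with each covered end counted once was 0.26 (adjusted p = 0.751).

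The VH segments supply the variable part of the heavy chain and are taken here to 2.6 Mb from the bait. They are given in 3 stretches by distance from the bait, between which no difference was tested. The proximal segments, to 500 kb, had a log2 difference of 0.00 ± 0.09. The middle segments, from 500 kb to 1.5 Mb, held 8.92%, 8.98% and 9.19% in the mutant and 10.6%, 10.2% and 9.71% in WT, a difference of -0.17 ± 0.04 (adjusted p = 0.0231, edgeR). The groups do not overlap, and the mutant libraries spread less (SD 0.142) than the WT libraries (SD 0.434). Of 240 middle VH ends read at least 10 times in all 6 libraries, 21 (8.75%) had every mutant library below every WT library. Another 13 (5.42%) had the reverse. On all of chromosome 12 these shares were 8.2% and 3.99%. The distal segments, from 1.5 to 2.6 Mb, held 3.73%, 4.91% and 4.74% in the mutant and 6.10%, 6.11% and 5.94% in WT, which is -0.44 ± 0.16 (adjusted p = 0.0948). Here the mutant libraries spread more (SD 0.636) than the WT libraries (SD 0.0988), and mutant replicate 1 is the lowest. Within the sets the ratios were -0.10 and -0.22 for the middle and -0.30 and -0.71 for the distal segments. The middle VH call was kept without WT replicate 3 (-0.20, adjusted p = 0.00697) and lost without any of the other 5 libraries (-0.14 to -0.18, adjusted p 0.0627 to 0.0971) and with the split ends left out (-0.13, adjusted p = 0.168). It was also lost in the fit of the 6 libraries alone (adjusted p = 0.170), with DESeq2 (0.300), TMM (0.171), capped ends (0.489), covered ends (0.993) and a bait neighbourhood of 2 kb (0.065). The distal segments passed in the fit of the 6 libraries alone (-0.44, adjusted p = 0.0314), with library size within 1 Mb (-0.50, adjusted p = 0.0249) and with the library set as a block (-0.53, adjusted p = 0.00554).

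By family, the Ighv1 segments, the largest family (92 of 183 segments, median 1.53 Mb from the bait), held 3.19%, 3.39% and 3.31% in the mutant and 4.44%, 4.41% and 4.57% in WT, a log2 ratio of -0.44. The groups lie far apart relative to their spread (SD 0.103 and 0.0879), and the ratio was -0.45 and -0.47 within the sets. Ighv8, the family farthest out by median, had a ratio of -0.26 with overlapping groups. Of the families nearer the bait, Ighv5 (0.14) and Ighv2 (-0.06) overlapped, and the small families Ighv11, Ighv14 and Ighv10 had every mutant library above every WT library. Ighv10 (4 segments) held 0.366%, 0.330% and 0.394% in the mutant and 0.293%, 0.165% and 0.275% in WT. In all, 8 of 16 families lay below 0 and 8 above. Families differ in their median distance from the bait, and family was not separated from position.

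Along chromosome 12, 2 of 21 distance bands were called, both lower in the mutant, which is 9.52%. The VH side band of 2 to 3 Mb reaches beyond the distal VH segments, which end at 2.6 Mb. From 2 to 3 Mb on the VH side the mutant libraries held 2.993%, 3.603% and 3.195% and the WT libraries 4.12%, 4.48% and 4.34%, a log2 difference of -0.40 ± 0.10 (adjusted p = 0.00883, edgeR). All 3 mutant libraries were lower, the ratios within the sets were -0.35 and -0.52, and the call held in 15 of 18 alternatives. It was lost with each covered end counted once (-0.22, adjusted p = 0.400), with capped ends (-0.32, adjusted p = 0.0884) and without WT replicate 2 (-0.37, adjusted p = 0.0503). From 50 to 100 kb on the constant side, a band that holds the Ighg3 and Ighg1 units, the mutant held 4.89%, 4.64% and 4.59% and WT 6.42%, 5.88% and 5.62% (-0.34 ± 0.10, adjusted p = 0.0185). That call was lost without mutant replicates 2 (adjusted p = 0.102) or 3 (0.0512) or WT replicates 1 (0.147) or 2 (0.0559), and with each covered end counted once the estimate was 0.03. The 50 to 100 kb call was also lost with capped ends (-0.23, adjusted p = 0.0884) and TMM scaling (-0.30, adjusted p = 0.0604, both edgeR). The next band out, 100 to 200 kb, which includes most of the 3'RR, was 0.23 ± 0.10 and did not pass (adjusted p = 0.127). From 1 to 2 Mb on the VH side every mutant library (6.65%, 7.29%, 7.81%) was below every WT library (8.98%, 8.55%, 8.31%), at -0.25 ± 0.10 (adjusted p = 0.127); this band passed with the library set as a block (adjusted p = 0.000486) and library size within 1 Mb (0.0323).

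**Figure D3:**
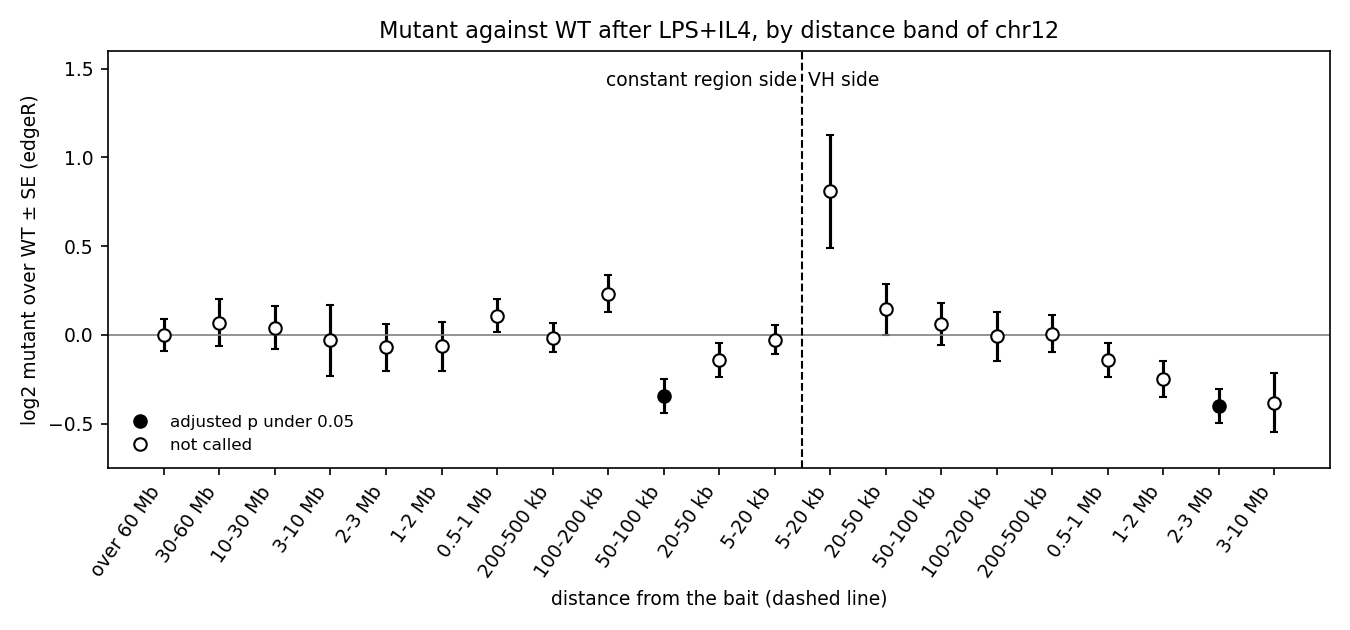
Log2 difference of mutant over WT after LPS and IL4 (edgeR estimate, bars are ± SE) in 21 bands of chromosome 12, ordered from the far constant side through the bait (dashed line) to the far VH side. Filled points passed an adjusted p of 0.05, and both of them, 50 to 100 kb on the constant side and 2 to 3 Mb on the VH side, lie below 0.

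In segments of 100 kb on the VH side the estimates were mixed up to 1 Mb and mostly below 0 beyond. Of the 10 segments to 1 Mb, 6 had a log2 ratio below 0, with a median of -0.06, and 1 had groups that did not overlap. Of the 20 segments from 1 to 3 Mb, 18 were below 0, with a median of -0.41. In 7 of the 20 all mutant libraries were below all WT libraries, and in 0 above. Over all 30 segments those counts were 8 and 0. Within the well-read set some of the 18 had ratios above 0. The segments are shares of the same total, so they do not vary independently. The segment from 1.3 to 1.4 Mb held 0.574%, 0.655% and 0.817% in the mutant and 0.9996%, 1.13% and 1.057% in WT, and the segment from 2.4 to 2.5 Mb held 0.193%, 0.351% and 0.375% against 0.475%, 0.506% and 0.621%. Mutant replicate 1 was far below the other 2 mutant libraries in parts of this stretch, such as 1.8 to 1.9 Mb, where it held 0.201% and the others 0.537% and 0.684%. The band from 3 to 10 Mb on the VH side held 1.28%, 1.75% and 2.13% in the mutant. WT libraries held 2.11%, 2.30% and 2.31% there. The groups overlap, at -0.38 ± 0.17 without a call (adjusted p = 0.127, edgeR). Estimates of the 1 Mb bins from 3 to 7 Mb were also below 0 (-0.19 to -0.41), so they did not turn where the VH segments end. The 110 bins of 1 Mb on the constant side beyond the first were split evenly, 53 below 0 and 57 above, with a median of 0.03.

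**Figure D4:**
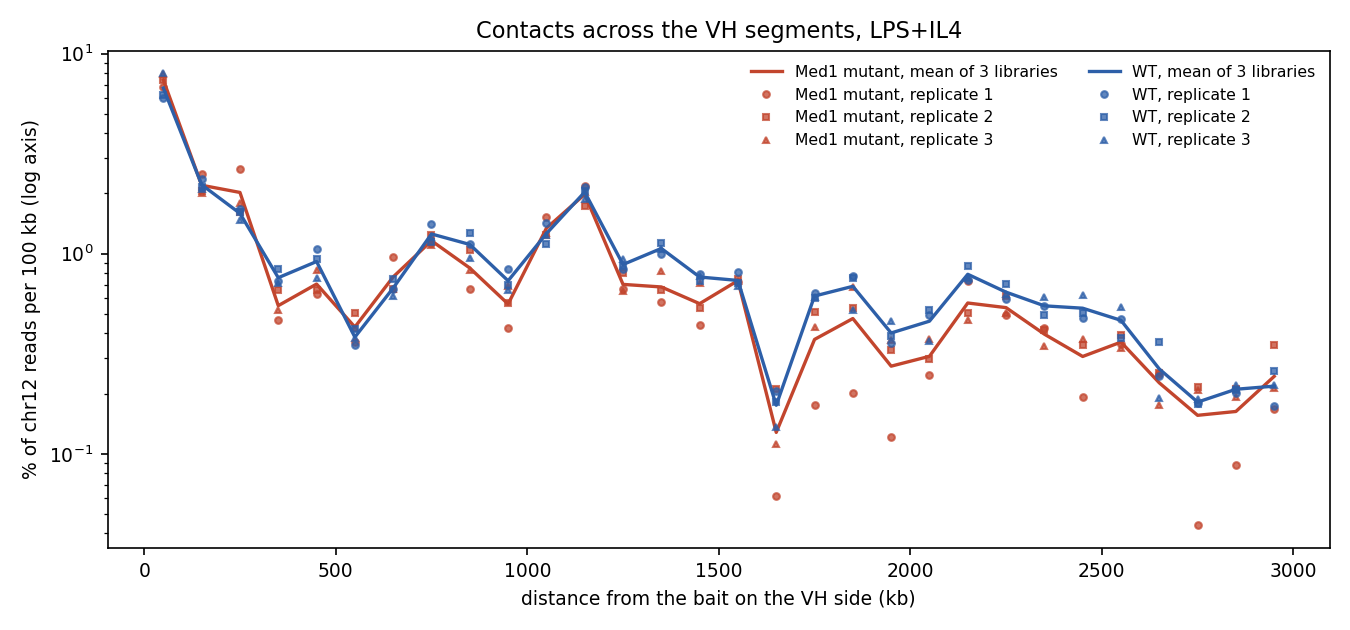
Share of chromosome 12 reads in each 100 kb of the VH side (percent, log axis, against distance from the bait in kb), with lines at the means of the 3 mutant (red) and 3 WT libraries (blue) and a symbol per library. From 1 to 3 Mb the mutant mean is below the WT mean in 18 of 20 segments, and mutant replicate 1 (red circles) is the lowest library in many of them.

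Of 118 bins of 1 Mb on chromosome 12, 1 was called, or 0.847%: the bin from 2 to 3 Mb on the VH side (chr12:115426025-116426024, the same reads as the band, -0.40 ± 0.10, adjusted p = 0.0245, edgeR). The bin call held without mutant replicate 2 and was lost without any of the other 5 libraries (-0.34 to -0.43, adjusted p 0.0968 to 0.420). The bin next to the bait on the constant side held 51.6%, 52.0% and 53.1% in the mutant and 48.7%, 49.4% and 51.2% in WT, all mutant libraries higher, at 0.07 ± 0.03 with an unadjusted p of 0.0248 (adjusted p = 0.733). Shares are relative, so a higher share in one place requires a lower share elsewhere.

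None of the 399 windows of 10 kb around the bait passed (0%, edgeR), 7 had an unadjusted p under 0.05, and 0 passed with DESeq2. The smallest p-values belonged to the window at chr12:113356025-113366024, which holds the Ighg3 gene and its near upstream part (0.838%, 0.744% and 0.714% in the mutant, 1.33%, 1.18% and 0.926% in WT, -0.58 ± 0.16, adjusted p = 0.641), to chr12:114616025-114626024 in the middle VH segments (-1.05 ± 0.33, adjusted p = 0.966) and to the window that starts at the bait on the VH side (0.89 ± 0.29, adjusted p = 0.983). Over the 399 windows the median log2 difference was -0.195, and 252 were below 0. The median was 0.019 with TMM and -0.005 with DESeq2, so it depended on the scaling. Windows with all mutant libraries below all WT libraries numbered 40 (10%), and those with all above 14 (3.51%), by shares without such scaling. Both windows of Ighg3 were among the 40 with all mutant libraries lower. So were 15 of 109 windows in the distal VH segments, 9 of 100 in the middle and 4 of 40 in the proximal ones.

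Of the 13 library-wide measures, some separated the genotypes as far as 3 against 3 libraries can show, since the exact permutation test (two-sided) cannot give a p below 0.1 here. The VH side held 28.9% ± 1.19 of the chromosome 12 reads in the mutant and 31.5% ± 0.225 in WT (SD, n = 3 each, exact p = 0.1, adjusted over 13 measures 0.325). The share within 1 Mb of the bait was 68.9% ± 0.948 and 66.1% ± 1.65, and the 100 most-read ends held 36.8% ± 1.11 and 34.2% ± 1.35 (both exact p = 0.1, adjusted 0.325). In these 3 measures the groups do not overlap. The share within 50 kb, 10.9% ± 0.0661 and 10.8% ± 0.490, did not separate them (exact p = 0.7). Chromosome 12 ends covered at equal depth numbered 10368 ± 2034 and 10345 ± 230 (exact p = 1), with mutant replicate 1 at 8086 the lowest of the 6.

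Reads on other chromosomes made up 43.8% ± 1.02 of the mutant and 42.7% ± 1.31 of the WT libraries (SD, n = 3 each, exact permutation p = 0.3). Of the 20 other chromosomes 1 was called (5%): chromosome 1 held 8.70%, 8.21% and 8.18% of the trans reads in the mutant and 7.93%, 7.38% and 7.79% in WT, a log2 difference of 0.12 ± 0.04 (adjusted p = 0.0342, edgeR). That call was kept without WT replicate 1 (0.14, adjusted p = 0.0456), was lost without any of the other 5 libraries (0.09 to 0.14, adjusted p 0.0699 to 0.375), and was lost after thinning to equal depth (0.11, adjusted p = 0.062). Chromosome 6, which carries Igk, was also higher in every mutant library (6.39%, 6.23% and 6.37% against 5.98%, 5.55% and 5.74%), without passing (0.14 ± 0.06, adjusted p = 0.160). Chromosome 10 was lower in every mutant library (5.20%, 5.08% and 5.11% against 5.39%, 5.35% and 5.80%). It did not pass either (-0.10 ± 0.07, adjusted p = 0.437, edgeR). Among 2532 trans bins of 1 Mb none passed (0%, edgeR), and none passed with DESeq2; an unadjusted p under 0.05 was seen in 85. The 3 bins with the smallest p were chr8:89000001-90000000 (3.68 ± 0.99), chr19:3000001-4000000 (-1.59 ± 0.46) and chr7:64000001-65000000 (-2.38 ± 0.73), each with an adjusted p of 0.999. These bins held 0.00158% to 0.0654% of the trans reads of a library and are given as values only.

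None of the 16 loci looked up on other chromosomes, each read through the 1 Mb bin that holds its start, passed (adjusted p = 0.999 for each, edgeR). Their median log2 difference was -0.25, with 9 below 0 and 7 above. Among the other antibody genes, the bin of Igkc (kappa light chain) had 0.33 ± 0.43 and that of Iglc1 (lambda light chain) -0.33 ± 0.36. The B cell transcription factors Pax5 (-0.62 ± 0.47), Ebf1 (-0.26 ± 0.50), Ets1 (-0.26 ± 0.67), Bach2 (0.73 ± 0.53), Irf4 (0.43 ± 0.67), Foxp1 (0.37 ± 1.08), Bcl6 (0.38 ± 0.59) and Ikzf1 (0.22 ± 0.24) had no common direction. The same holds for the surface receptors and signalling genes, namely Cd79b of the B cell receptor (-0.24 ± 0.31), Cd83 (0.06 ± 0.48), the kinase Pim1 (-0.42 ± 0.40), and Il4ra and Il21r, cytokine receptors that share a bin (-0.41 ± 0.41).

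The bin that holds Med1 itself (chr11:98000001-99000000) was the only one of these with an unadjusted p under 0.05 (0.00807). It held 0.0482%, 0.0397% and 0.0645% of trans reads in mutant replicates 1, 2 and 3 and 0.130%, 0.0589% and 0.145% in WT replicates 1, 2 and 3, a log2 difference of -1.13 ± 0.38. WT replicate 2 lies below mutant replicate 3, so the groups overlap. After thinning, 25 ends of the bin were covered in the mutant and 31 in WT, as means of 3 libraries.

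The resting cells share no library with this comparison, but both genotype differences come from the same fit of 12 libraries. Resting and day 2 libraries of the same genotype and number fall in the same library set, and the fit did not pair them. In resting cells the genotype difference of Ighg1 was -0.02 ± 0.11 (adjusted p = 0.909), that of Ighe 0.59 ± 0.13 (adjusted p = 0.0137) and that of Ighg3 -0.38 ± 0.12 (adjusted p = 0.0576, all edgeR). That of the distal VH segments was -0.56 ± 0.16 (adjusted p = 0.050) and that of the 2 to 3 Mb band -0.61 ± 0.10 (adjusted p = 6.4e-05, both edgeR). Of these Ighe, higher in the mutant, the distal VH segments and the band passed. The difference between the genotype effects after LPS with IL4 and at rest was -0.52 ± 0.18 for Ighe (adjusted p = 0.208), -0.38 ± 0.15 for Ighg1 (0.208), -0.15 ± 0.06 for the middle VH segments (0.208), -0.09 ± 0.17 for Ighg3 (0.818) and 0.21 ± 0.14 for the 2 to 3 Mb band (0.594). No element, window, band, bin or chromosome passed that test, so no genotype difference was shown to be particular to the activated cells.

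**Figure D5:**
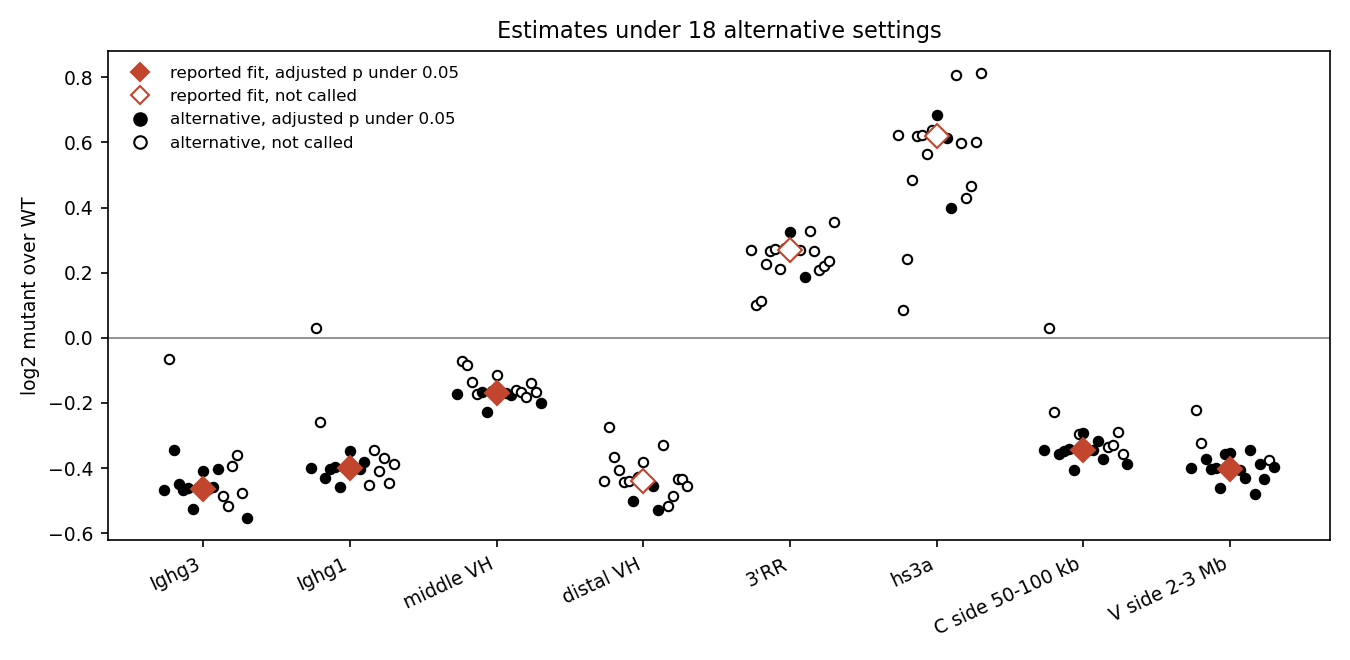
Log2 difference of mutant over WT in the reported fit (red diamonds) and under 18 alternative settings (black circles) for 6 elements and 2 distance bands; filled symbols passed an adjusted p of 0.05. The band from 2 to 3 Mb on the VH side passed in 15 of 18 alternatives, Ighg3 in 11, Ighg1 in 9 and the middle VH segments in 6, and the estimates of Ighg1 and of the 50 to 100 kb band are just above 0 in the alternative that counts covered ends.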

How the data were processed

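The 12 files of resting and LPS with IL4 cultures hold raw read counts per 24 bp interval at a fragment end as deposited by the authors, with no normalization found in them; Bowtie and mm10 are named in the submitters' processing notes, and mapping settings are not given in the sources used here. The 6 files of LPS cultures list coordinates without counts and were not used. Libraries were grouped by the genotype, day and culture labels. Ends up to 5 kb from the bait were not used. Reads were summed per element, 10 kb window, distance band and 1 Mb bin (features with a mean of at least 10 reads) and fitted with edgeR 4.0.16 in R 4.3.3 (robust quasi-likelihood test, group means of the 12 libraries, library size the chromosome 12 reads outside 5 kb, or the trans reads, no TMM factors). P-values are two-sided and adjusted by Benjamini-Hochberg within each table, at 0.05. The SE is that implied by the F statistic. Gene positions came from RefSeq (GRCm38.p6); all 16 trans loci reported matched. The 3'RR, its pieces of 4 kb and the 3' CTCF sites were set at distances beyond Igha, so their positions are approximate. Items named are all elements, called windows or bins or else the 3 with the smallest p, the 5 most-read flank genes, and a list of trans loci with Med1 among them; 1 locus of the list is not reported here. VH families, 5 kb and 100 kb segments and the ends next in rank are descriptions without a test. The members and lists were chosen with earlier results of these data known. Library measures were compared by exact permutation over 20 splits. The fits were tested on simulated data with larger log2 changes than those called here and without the library sets. That simulation therefore does not cover these calls. Alternatives were TMM factors, DESeq2 1.42.0, the 6 libraries alone, the replicate number or the library set as a block, thinning to 2468920 reads, covered ends in place of reads, ends capped at the 99th percentile, bait neighbourhoods of 2 and 10 kb, library size within 1 Mb, no filter, other window and bin sizes, and each library left out. Leaving out the ends read in only 1 library set was added after seeing the data. Python 3.11.15, numpy 2.4.6, pandas 2.3.3, scipy 1.17.1 and matplotlib 3.10.9 did the rest.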

Additional observations from a re-analysis of the deposited data

How the results depend on the processing

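Counts of calls depended on the setting, and the cause of each change was not tested except where the construction shows it. Of 21 elements 3 were called; 0 were called with covered ends in place of reads and with TMM factors, 1 with capped ends, 5 with the replicate block, 6 with the library set as a block and 0 to 2 with single libraries left out. Of the distance bands 2 were called, against 0 with covered ends and with capped ends, 1 with TMM, 4 with library size within 1 Mb, 5 with the replicate block, 6 with the library set as a block and 0 to 5 with single libraries left out. Of the 1 Mb bins of chromosome 12, 1 was called, against 0 with capped ends, TMM and DESeq2, 2 with the 6 libraries alone and with the library set as a block, 3 with the replicate block and 0 to 1 with libraries left out. With covered ends 1 bin was called as well, but as higher, and the 2 to 3 Mb bin was lost (-0.223, adjusted p = 0.306). Of the trans chromosomes 1 was called, against 0 after thinning, with covered ends, TMM and the 6 libraries alone, 2 with DESeq2 and 0 to 2 with libraries left out. Windows and trans bins gave 0 in every alternative run. Without WT replicate 2, whose culture note names anti-CD40 with IL4, no element, band, chromosome 12 bin or trans chromosome was called. The trans share of reads outside the bait neighbourhood was 1.18 percentage points higher in the mutant, 2.498 with capped ends and 0.492 to 1.79 with libraries left out. Estimates that turned sign were Ighg1 (0.03) and the 50 to 100 kb band (0.029) with covered ends, and Ighe (-0.006) without WT replicate 1, where leaving out single libraries gave up to 0.155. The replicate numbers were not taken to pair the samples: same-numbered deviations over the elements correlated at 0.63, -0.41 and 0.58, and under the replicate block Ighg1 was -0.40 (adjusted p = 0.0104, edgeR), while hs3a (0.61, adjusted p = 0.0199), the distal VH segments (-0.46, 0.0115) and the VH side bands of 5 to 20 kb (0.84, 0.0184) and 1 to 2 Mb (-0.26, 0.0247) gained a call. Each group held 3 libraries, and the reads are not independent molecules. Single windows and trans bins had a median SE of 0.70 and 0.68, and what set its size was not tested. The largest differences relative to their SE, such as 3.68 ± 0.99, were picked from 2532 trans bins and did not pass. Of these bins 85 had an unadjusted p under 0.05 (edgeR).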
